A study of Mus musculus with 8 samples.

Results

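The dermal papilla is the cluster of specialised mesenchymal cells at the base of each hair follicle, and Sox2, Sox18, Corin, Alx4, Prdm1, Twist1 and Twist2 are genes that mark it or act in it. These 7 genes were chosen by name out of 18770 measured genes, with their difference between alpinetin-treated (AP) and vehicle-treated (VC) skin already known. Their AP to VC contrast, and that of the 3 fibroblast genes Pdgfra, Col1a1 and Lum used as a reference, is therefore given as a description with no test. All 7 members were among the 15964 genes with 3 or more normalized counts in 4 or more libraries.

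The study asked whether alpinetin, a plant flavonoid, changes hair growth after the hair has been removed. RNA was sequenced from the back skin of wildtype male mice, aged 7 to 8 weeks by the labels, at day 4 after depilation, which starts a new hair cycle. The strain is C57BL/6 in the labels and C57BL/6J in the study's methods. The 4 AP libraries came from skin that received 20 µl of alpinetin daily, at 3 mg/ml in 65% ethanol, and the 4 VC libraries from skin that received 20 µl of 65% ethanol alone. The epidermis between the follicles was taken off and the dermis with its follicles was kept, with no sorting of papilla cells. In such bulk tissue, fewer papilla cells and less RNA per papilla cell cannot be told apart. The p-values below measure the spread between these libraries, and the library names used here (VC.1 to VC.4, AP.1 to AP.4) could not be tied to single mice.

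Papilla cells instruct the epithelium above them through secreted BMP, FGF and Wnt-modulating signals, and those signals take part in the start of hair growth. Sox2 and Sox18 are DNA-binding factors of the Sox family, Alx4 is a paired-type homeodomain factor, and Prdm1 (Blimp1) is a zinc-finger repressor. Twist1 and Twist2 are basic helix-loop-helix factors of the skin mesenchyme, and Corin is a membrane-bound serine protease of the papilla that acts on coat colour.

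The VC libraries held 6454563 to 7264151 reads on genes and the AP libraries 8507783 to 11190113. The share of reads on the mitochondrial genome was 48.4% ± 5.81 (SD, n = 4) in VC and 8.66% ± 2.63 (SD, n = 4) in AP. This left 3080758 to 3762217 other reads per VC library and 7561598 to 10594787 per AP library. A count of 3 reads, taken as the detection floor for counting error only, equalled 4.10 to 5.63 normalized counts in VC and 1.49 to 2.18 in AP. Scaling to total counts, mitochondrial genes included, moved the middle log2 fold change over all genes (the median) from 0.06 to 0.90, so changes are also given below relative to that median. Under that scaling, 8657 of the 15964 genes tested were higher and 70 lower at an adjusted p under 0.05 (limma). List counts given below for total-count scaling are to be read beside these. The part of the mitochondrial share in the results below was not tested.

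The tissue label was checked against marker genes. The collagen gene Col1a1 stood at 36683 ± 21309 normalized counts (SD, n = 4) in VC and 55218 ± 24981 (SD, n = 4) in AP. The basal keratin Krt14, shared by the outer follicle epithelium and the epidermis, stood at 19974 ± 14051 (SD, n = 4) in VC and 37960 ± 20586 (SD, n = 4) in AP, so both dermis and epithelium were present. Although the epidermis between the follicles was taken off, the keratin Krt10 of differentiated epidermis stood at 2376 ± 1207 (SD, n = 4) in VC and 38536 ± 27358 (SD, n = 4) in AP. The members were measured far below these genes, with 24 to 892 reads per gene and library.

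Sox2, which is expressed in the papillae of the larger hair types, was lower in AP. Sox2 counts, normalized for depth, were 109, 90.1, 124 and 56.3 across VC.1 to VC.4 against 21.8, 18.3, 42.4 and 26.5 across AP.1 to AP.4. Each AP library lay below each VC library, with VC.4 the lowest of the VC libraries and AP.3 the highest of the AP libraries. The means were 95.0 ± 29.3 (SD, n = 4) and 27.2 ± 10.6 (SD, n = 4), a log2 fold change of −1.78 (SE 0.36) on the log2(value + 1) scale, which was −0.93 with total-count scaling. These values rested on 30 to 91 reads per library, the smallest upper limit among the members.

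Sox18, which acts in the papilla and in vessel endothelium, had the smallest spread between libraries. Its normalized counts were 597, 587, 427 and 549 across VC.1 to VC.4 against 415, 286, 359 and 411 across AP.1 to AP.4. The groups did not overlap, and VC.3 lay only just above AP.1. The means were 540 ± 77.8 (SD, n = 4) and 368 ± 59.9 (SD, n = 4), a log2 fold change of −0.56 (SE 0.18), which was 0.31 with total-count scaling and −0.59 relative to the median of all genes under that scaling.

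Corin varied most within groups. Corin counts were 127, 254, 565 and 82.5 across VC.1 to VC.4 against 58.0, 103, 230 and 85.1 across AP.1 to AP.4. The third library was the highest in both groups, and the groups overlapped widely. The highest VC library held 6.85 times the lowest, and the log2 fold change of −0.92 (SE 0.56) became −0.41 without VC.3 and −1.33 without VC.4. The means were 257 ± 218 (SD, n = 4) and 119 ± 76.3 (SD, n = 4), so their difference was smaller than the VC spread. With total-count scaling the log2 fold change was −0.05, and −0.95 relative to the median of all genes.

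Alx4, a homeodomain factor of the limb, face and skin mesenchyme, followed Sox2 across the libraries. Alx4 counts were 367, 296, 431 and 191 across VC.1 to VC.4 against 145, 62.0, 224 and 97.3 across AP.1 to AP.4. The groups met at a single point, with AP.3 above VC.4. The means were 321 ± 103 (SD, n = 4) and 132 ± 70.0 (SD, n = 4), a log2 fold change of −1.37 (SE 0.37). With total-count scaling it was −0.50, and relative to the median of all genes it was −1.43 and −1.41 under the 2 scalings.

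Prdm1, which marks papilla precursors in the embryo and other cell types in adult skin, showed no clear difference. Its normalized counts were 43.7, 90.1, 176 and 80.6 across VC.1 to VC.4 against 78.3, 86.8, 148 and 83.7 across AP.1 to AP.4. The AP values lay wholly inside the VC range, and the third library was again the highest in both groups. The means were 97.6 ± 56.0 (SD, n = 4) and 99.3 ± 33.0 (SD, n = 4), and the log2 fold change of 0.15 (SE 0.39) turned to −0.18 without VC.1 and −0.06 without AP.3. With total-count scaling the log2 fold change was 1.005, and 0.10 relative to the median of all genes under that scaling.

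Twist1, which is expressed in dermal fibroblasts as well as in the papilla, was lower in AP in most libraries. Twist1 counts were 788, 576, 924 and 1404 across VC.1 to VC.4 against 643, 481, 433 and 391 across AP.1 to AP.4. VC.4 stood far above the rest, and AP.1 exceeded VC.2. The means were 923 ± 351 (SD, n = 4) and 487 ± 110 (SD, n = 4), a log2 fold change of −0.87 (SE 0.26). With total-count scaling it was −0.0016, no difference, and −0.90 relative to the median of all genes under that scaling.

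Twist2, the close relative of Twist1, gave the same order of VC extremes. Its normalized counts were 593, 356, 429 and 1217 across VC.1 to VC.4 against 376, 283, 194 and 203 across AP.1 to AP.4. VC.4 was again the highest library and VC.2 the lowest VC library, lying just below AP.1. The means were 649 ± 391.5 (SD, n = 4) and 264 ± 84.6 (SD, n = 4), a log2 fold change of −1.18 (SE 0.35), which was −0.82 without VC.4 and −0.31 with total-count scaling.

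**Figure D1:**
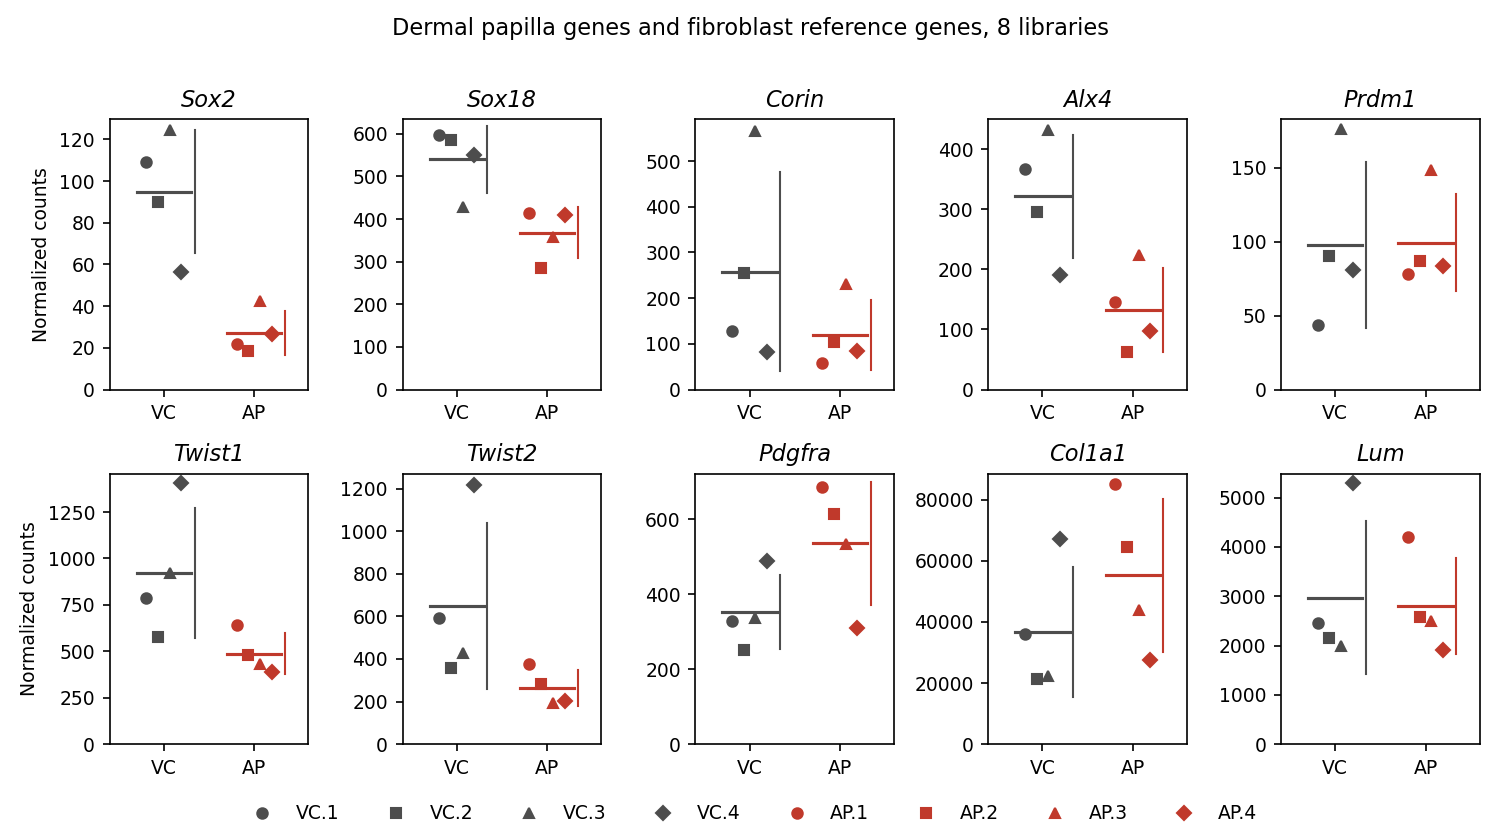
Normalized counts of the 7 dermal papilla genes and the 3 fibroblast reference genes in each library, with 1 linear axis per gene that starts at 0. Points are libraries, horizontal lines are group means and vertical lines are SD (n = 4). The AP points of Sox2 and Sox18 lie below every VC point (for Sox18 the fold change turns to 0.31 with total-count scaling), and those of Prdm1 lie within the VC range.

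Over the 7 members, the median log2 fold change was −0.92 against 0.06 over all 15964 genes. The fold change was below 0 for 6 members (Prdm1 was the exception) and for 46.5% of all genes, and with total-count scaling those of Sox18 and Prdm1 were both above 0. Relative to the median of all genes, 6 of the 7 members were lower with the deposited scaling and equally with total-count, upper-quartile and TMM scaling. Sox2 lay at −1.83 relative to that median with the deposited scaling and also with total-count scaling, and Twist2 at −1.23 and −1.21. The groups did not overlap for 2 of 7 members, with AP low, against 8.91% of all genes tested, and for 0 of 7 with AP high, against 10.3%. Since the members were selected on this contrast, nothing is read from these counts.

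Levels can be compared between genes only per length, here as normalized counts per kb of exon. In VC the order was Twist1 (567 ± 216), Sox18 (333 ± 48.0), Twist2 (204 ± 123), Corin (47.7 ± 40.3), Sox2 (46.2 ± 14.3), Alx4 (45.5 ± 14.6) and Prdm1 (17.5 ± 10.05) (SD, n = 4 for each). Corin, Sox2 and Alx4 did not differ beyond their spread in VC. In AP the order was Twist1 (299 ± 67.6), Sox18 (227 ± 37.0), Twist2 (83.2 ± 26.7), Corin (22.1 ± 14.1), Alx4 (18.7 ± 9.91), Prdm1 (17.8 ± 5.91) and Sox2 (13.2 ± 5.16), and the last 4 lay within each other's spread. Sox2 thus went from the fifth to the last place, and the first 4 places were held by the same genes in the same order in both groups. The level of Twist1 per length was 3.05 ± 0.855 times that of Twist2 in VC and 3.69 ± 0.491 times in AP (SD, n = 4), a difference smaller than the VC spread.

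The pan-fibroblast genes Pdgfra, which encodes a receptor for platelet-derived growth factor, and Col1a1 were if anything higher in AP. Pdgfra counts were 329, 251, 337 and 488 across VC.1 to VC.4 against 686, 613, 533 and 309 across AP.1 to AP.4, a log2 fold change of 0.59 (SE 0.27). The counts of Lum, a proteoglycan of the collagen matrix, were 2454, 2162, 1991 and 5288 in VC and 4191, 2586, 2497 and 1909 in AP, a log2 fold change of −0.03 (SE 0.32) that was 0.84 with total-count scaling. The groups overlapped for each of the 3 genes, and VC.4 was the highest VC library in each. The mean log2 level of the 3 reference genes was 11.61 ± 0.59 (SD, n = 4) in VC and 12.01 ± 0.55 (SD, n = 4) in AP.

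Each member was then set against the mean log2 level of Pdgfra, Col1a1 and Lum in the same library, which removes nearly all scaling of whole libraries. Because 1 is added before the log, small shifts remain (AP minus VC for Sox2 was −2.17, and −2.19 with total-count scaling). The reference mean was itself 0.40 higher in AP, against a median of 0.06 over all genes. A gene at that median therefore lies below 0 in AP minus VC on this scale. On this scale Twist1 lay at −1.96, −1.97, −1.42 and −1.99 across VC.1 to VC.4 and at −3.28, −3.28, −3.16 and −2.69 across AP.1 to AP.4. Twist2 lay at −2.37, −2.67, −2.52 and −2.19 in VC and at −4.05, −4.04, −4.32 and −3.63 in AP. For both Twist genes, 2 of the 7 members, the groups no longer overlapped, with AP low, as for 5.52% of all genes tested on this scale (AP was high for 0 of 7 members and 0.733% of all genes). The spread within groups was small, with an SD of 0.28 in both groups for Twist1 and of 0.20 in VC and 0.28 in AP for Twist2. AP minus VC was −1.27 for Twist1 and −1.57 for Twist2.

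The same reference made Sox2 and Sox18 overlap. Sox2 lay at −4.80, −4.64, −4.30 and −6.61 in VC and at −8.10, −7.92, −6.48 and −6.53 in AP, so that VC.4, where the reference genes were high, fell below AP.3 and AP.4. AP minus VC was −2.17 for Sox2, −1.77 for Alx4, −1.31 for Corin, −0.95 for Sox18 and −0.25 for Prdm1, with a median of −1.31 over the 7 members. For Corin this difference was −0.69 without VC.3, −0.83 without AP.1 and −2.01 without VC.4. For Prdm1 it turned to 0.20 without VC.3 and to 0.05 without AP.1, and relative to the median of all genes Prdm1 lay at 0.09. Against 12 other fibroblast genes, such as Dcn and Col3a1, AP minus VC was −1.90 for Sox2, −0.68 for Sox18, −1.04 for Corin, −1.49 for Alx4, −0.99 for Twist1, −1.30 for Twist2 and 0.02 for Prdm1.

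**Figure D2:**
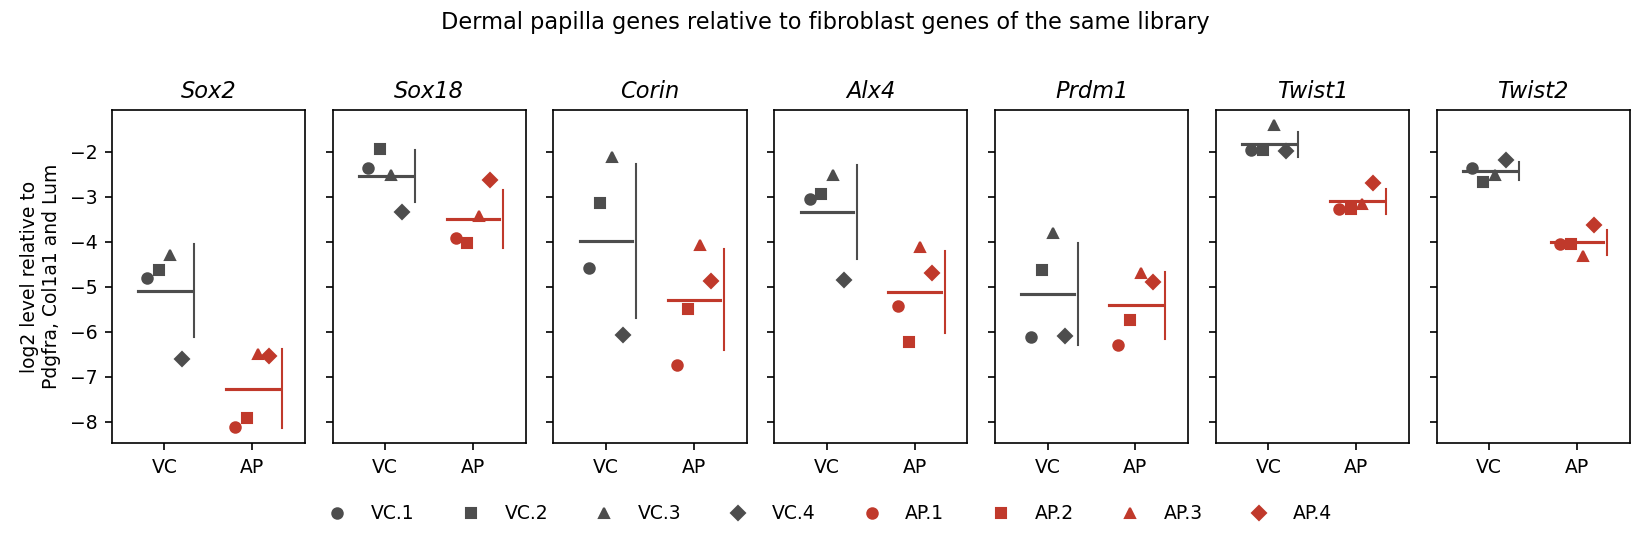
Level of each dermal papilla gene on the log2 scale relative to the mean log2 level of Pdgfra, Col1a1 and Lum in the same library. Points are libraries, horizontal lines are group means and vertical lines are SD (n = 4). The groups are apart for Twist1 and Twist2 and overlap for the other members.

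Within groups the members did not vary as 1 block. With each group's mean taken off, the Pearson r over the 8 libraries was 0.90 between Twist1 and Twist2, the highest of the 21 pairs, 0.88 between Sox2 and Alx4 and 0.82 between Corin and Prdm1. Twist2 ran against Corin (r of −0.78) and against Sox2 (r of −0.73). Twist1 and Twist2 followed the mean of the 3 reference genes (r of 0.88 and 0.92), whereas Sox2 and Corin ran against it (r of −0.61 and −0.60) and Sox18 was unrelated to it (r of 0.01). These correlations are descriptions that were not tested, and genes measured in the same library share its tissue makeup and depth. Among 11257 genes with a mean of at least 50 normalized counts, those most like the mean of the 7 members within groups were Metap1d (r of 0.98), Bag5 (0.98), Ift140 (0.96), Kif7 (0.96) and Rps6kb2 (0.94), over 8 libraries. They were picked as the highest of 11257 values over few libraries, where selection alone can give a high r. That mean also joins members that ran against each other, so nothing is read from these genes.

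On the mouse genome build GRCm38, Sox2 lies at chr3:34650405-34652461 (+), Sox18 at chr2:181669836-181671640 (−), Corin at chr5:72300025-72504473 (−), Alx4 at chr2:93642384-93681339 (+), Prdm1 at chr10:44437177-44528501 (−), Twist1 at chr12:33957671-33959829 (+) and Twist2 at chr1:91801461-91848028 (+). Exons of Twist2 overlap those of the antisense gene Gm29100, and 45.7% of the 50-base words of Twist2 transcripts are also found, on either strand, in Gm29100. Gm29100 counts were 373, 272, 269 and 966 across VC.1 to VC.4 against 317, 211, 163 and 175 across AP.1 to AP.4, a pattern close to that of Twist2 (log2 fold change −0.94, SE 0.38, adjusted p = 0.119 by limma). Whether the counting used strand is not given in the sources used here, so reads from the 2 genes cannot be told apart and the Twist2 level is uncertain. Corin shared 1.17% of its words with the antisense gene Gm20647 and Alx4 0.156% with other genes, while Sox2, Sox18, Prdm1 and Twist1 shared none. Exons of the reference gene Pdgfra overlap those of the antisense gene Gm42802, of Gm42803 and of Mir7025, so the same doubt holds for the Pdgfra level and for the reference scale that uses it.

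Since Twist1 and Twist2 varied together most closely, the 250 bases before their transcription starts are shown, 5′ to 3′ on the strand of the gene, from RefSeq on GRCm38.p6. The table held 5 of the 7 members and had no entry for Sox18 and Alx4. Both strands were searched for the E-box bound by helix-loop-helix factors (CANNTG), a Sox motif (AACAAT) and a paired homeodomain motif (TAAT and ATTA with 3 bases between them), and matches are in capitals. The Twist1 window is chr12:33957421-33957670 (+), outside any annotated gene, and the Twist2 window is chr1:91801211-91801460 (+), over an exon of the antisense gene Gm29100.
Twist1: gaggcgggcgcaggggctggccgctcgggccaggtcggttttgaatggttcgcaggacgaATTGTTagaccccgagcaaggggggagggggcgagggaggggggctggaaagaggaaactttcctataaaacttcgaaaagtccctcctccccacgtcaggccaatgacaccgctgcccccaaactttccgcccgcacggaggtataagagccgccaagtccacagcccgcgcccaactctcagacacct
Twist2: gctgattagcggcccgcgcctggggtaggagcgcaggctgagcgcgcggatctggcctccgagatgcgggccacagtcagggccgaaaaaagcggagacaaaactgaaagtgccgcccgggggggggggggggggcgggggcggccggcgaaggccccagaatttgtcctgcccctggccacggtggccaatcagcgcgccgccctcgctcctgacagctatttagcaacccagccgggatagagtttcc
The Twist1 window held 1 match to the Sox motif and none to the other motifs, and the Twist2 window held no match to any of them. Over all 32851 promoters, windows of the same length held the E-box in 66.2%, the Sox motif in 9.42% and the paired motif in 0.463%. In the other members, the Corin window held 1 E-box, the Prdm1 window 2 and the Sox2 window none.

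Other dermal papilla and mesenchyme genes were listed too, also with earlier results of these data known, so their counts are no independent support for the members. Of 48 such genes 46 could be tested (the forkhead genes Foxf1 and Foxf2 were too low), and 12 were lower in AP at an adjusted p under 0.05 (limma, Benjamini-Hochberg over all genes) against 4.0% of all genes tested. None was higher (0 by limma, edgeR and DESeq2, with 2 of 46 at an unadjusted p under 0.05 by limma) against 6.33% of all genes. The median log2 fold change was −0.57 against 0.06 over all genes, and 36 of the 46 lay below the median of all genes both with the deposited and with total-count scaling, where the list's own median was 0.29 and 7 were higher and 2 lower. The count of 12 fell to 4 without AP.4, 5 without AP.3 and 6 without AP.2, and 1 gene was higher without VC.2.

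Among the 18 signals and signal modulators, 4 were lower and 0 higher, beside 4.0% and 6.33% of all genes tested. Norrin (Ndp), a ligand of the Wnt receptor Frizzled-4, was at 106, 85.7, 102 and 45.0 normalized counts across VC.1 to VC.4 and at 15.2, 20.5, 24.9 and 22.2 across AP.1 to AP.4. It fell in AP with no overlap (log2 fold change −1.93, SE 0.36, adjusted p = 0.0130 by limma), and it was the only gene of the 12 past the threshold in each of the alternatives. Rspo1, a secreted enhancer of Wnt signalling, was at 213, 327, 395 and 283 in VC and at 120, 71.7, 136 and 107 in AP (log2 fold change −1.48, SE 0.25, adjusted p = 0.0103 by limma). Its groups did not overlap either, and its relative Rspo3 also fell (log2 fold change −1.45, SE 0.32, adjusted p = 0.0212 by limma), with an adjusted p of 0.0591 to 0.0633 by limma without AP.2, AP.3 or AP.4. The Wnt inhibitor Wif1 fell as well (log2 fold change −1.24, SE 0.30, adjusted p = 0.0282 by limma), with an adjusted p of 0.0513 to 0.0806 by limma without VC.2, VC.3, VC.4, AP.2 or AP.4. With total-count scaling the adjusted p by limma was 0.217 for Rspo3 and 0.396 for Wif1. The other 14 did not pass, among them Bmp4 (−0.89, adjusted p = 0.0536 by limma), Fgf7 (−0.09, adjusted p = 0.880) and Sostdc1 (0.68, adjusted p = 0.122). The most abundant signal per length was Wif1 in VC and Sostdc1 in AP.

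Among 12 matrix, enzyme and surface genes of the papilla, 3 were lower and 0 higher, beside 4.0% and 6.33% of all genes tested. The retinoic acid-binding protein gene Crabp1, the most abundant of them per length, was at 471, 535, 602 and 2254 normalized counts across VC.1 to VC.4 and at 169, 269, 130 and 140 across AP.1 to AP.4. The groups did not overlap, VC.4 stood far above the rest, and the log2 fold change was −2.17 (SE 0.44, adjusted p = 0.0167 by limma). The chemokine receptor gene Cxcr4 (log2 fold change −1.10, SE 0.24, adjusted p = 0.0222 by limma) and the matrix gene Spon1 (log2 fold change −0.88, SE 0.23, adjusted p = 0.0365 by limma) fell too. Leaving out AP.3 or AP.4 took Crabp1 past 0.05 (adjusted p of 0.0526 to 0.0556 by limma), as did leaving out AP.2, AP.3 or AP.4 for Cxcr4 (0.0553 to 0.0667). For Spon1 each library but VC.1 and AP.1 did so (0.0522 to 0.0936). With total-count scaling the adjusted p by limma was 0.429 for Cxcr4, 0.973 for Spon1 and 0.0237 for Crabp1. With total counts without mitochondrial genes it was 0.0656 for Spon1. The matrix proteoglycan gene Vcan and the phosphatase gene Alpl, both long used as papilla markers, had log2 fold changes of −0.59 (adjusted p = 0.276 by limma) and −0.92 (adjusted p = 0.0894) and did not pass.

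Among 16 mesenchyme transcription factors that could be tested, 5 were lower and 0 higher, beside 4.0% and 6.33% of all genes tested. Zeb1, a repressor of epithelial genes, was at 355, 395, 449 and 647 normalized counts across VC.1 to VC.4 and at 227, 224, 109 and 152 across AP.1 to AP.4 (log2 fold change −1.39, SE 0.27, adjusted p = 0.0146 by limma). Its relative Zeb2 was at 1039, 810, 845 and 1163 in VC and at 554, 555, 452 and 458 in AP (log2 fold change −0.92, SE 0.16, adjusted p = 0.0108 by limma). Neither gene's groups overlapped, and both, like Rspo1, lost the call only with total-count scaling (adjusted p of 0.136 for Zeb1, 0.798 for Zeb2 and 0.126 for Rspo1 by limma, against lowest values of 1.76e-04, 2.34e-05 and 6.40e-06 over the alternatives). Snai1, Tbx15, the most abundant per length, and Prrx2 fell by 1.18, 1.14 and 0.88 on the log2 scale (adjusted p of 0.0321, 0.0363 and 0.0363 by limma). These 3 calls were less firm, with adjusted p of 0.0649 to 0.101 for Snai1 without VC.1, VC.4, AP.3 or AP.4, of 0.0580 to 0.112 for Tbx15 without any library but VC.2 and AP.1, and of 0.0508 to 0.116 for Prrx2 without any library but VC.1 and AP.1, all by limma. With total-count scaling the adjusted p by limma was 0.367 for Snai1, 0.444 for Tbx15 and 0.975 for Prrx2.

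**Figure D3:**
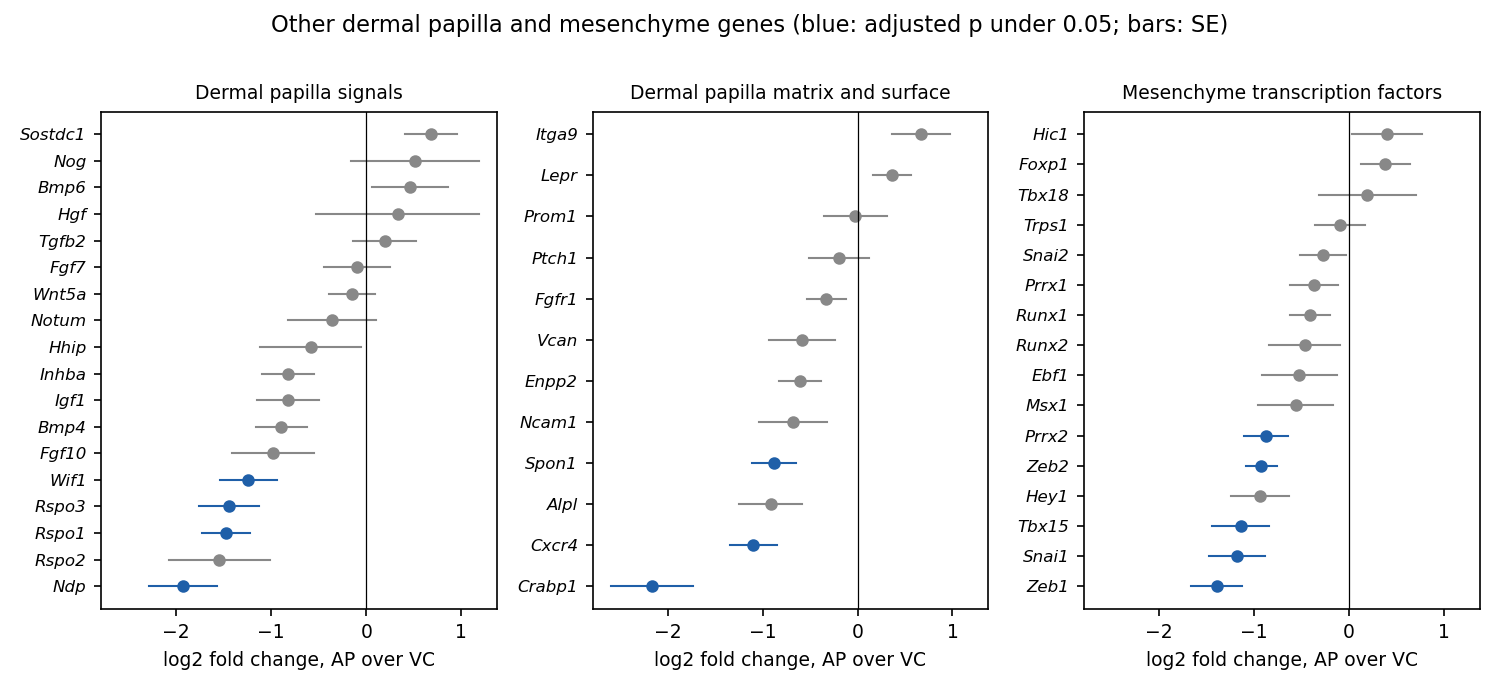
Log2 fold change of AP over VC, on the log2(value + 1) scale, for the 46 other dermal papilla and mesenchyme genes that could be tested, in 3 lists. Points are estimates, bars are SE, and blue marks the 12 genes with an adjusted p under 0.05 by limma. With total-count scaling 7 of the genes are higher and 2 lower.

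Broader fibroblast genes were called or not depending on the scaling. Of 12, 0 were called in either direction by limma (6.33% higher and 4.0% lower over all genes) and by edgeR and 1 was lower by DESeq2, with 2 higher and 1 lower at an unadjusted p under 0.05 by limma. Their median log2 fold change was 0.08, and 6 of them lay below the median of all genes. With total-count scaling 9 were higher and 0 lower, with a median of 0.95, which is 0.05 relative to the median of all genes under that scaling. Of all 15964 genes tested, 8657 were higher under that scaling. The matrix protein gene Sparc, the most abundant per length, was at 41904 ± 16745 normalized counts (SD, n = 4) in VC and 37929 ± 12102 (SD, n = 4) in AP.

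Calls for partners and inhibitors of the Twist proteins also moved with the scaling, as did those of all genes. Of the dimer partners Tcf3, Tcf4 and Tcf12 and the inhibitors Id1 to Id4, 0 of 7 were called by limma (6.33% higher and 4.0% lower over all genes) or edgeR, 1 was higher and 1 lower by DESeq2, and 1 was higher and 2 lower at an unadjusted p under 0.05 by limma. With total-count scaling 5 of the 7 were higher, beside 8657 of all 15964 genes tested, so nothing is read from that count. Under either scaling 5 of the 7 lay below the median of all genes. The groups did not overlap for Tcf3 and Id2, with AP low at the deposited scaling, as for 8.91% of all genes tested. Id3, the most abundant per length, stood at 1012 ± 286 normalized counts (SD, n = 4) in VC and 839 ± 129 (SD, n = 4) in AP. Hand1 and Hand2 were not analysed here. Among close relatives of the members, Sox7, which acts beside Sox18 in vessels, went the opposite way to Sox18. It was at 45.5, 51.7, 66.9 and 56.3 normalized counts across VC.1 to VC.4 and at 131, 196, 167 and 245 across AP.1 to AP.4, and it rose (log2 fold change 1.70, SE 0.25, adjusted p = 0.00684 by limma). Sox17 (0.93) and Alx1 (0.90) did not pass (adjusted p of 0.0902 and 0.533 by limma), and Sox1 and Sox3 were not analysed here.

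Several members are also expressed in other skin cells, whose markers moved too. Sox18 is an endothelial gene, and of 9 endothelial markers 3 rose in AP and 0 fell, beside 6.33% and 4.0% of all genes, with Pecam1 at 1.44 (SE 0.31, adjusted p = 0.0198 by limma), Flt1 at 1.86 (SE 0.41, adjusted p = 0.0212) and Cdh5 at 1.75 (SE 0.47, adjusted p = 0.0386) on the log2 scale. With TMM scaling 5 of the 9 were higher, with total counts without mitochondrial genes 4 and with total-count scaling 8. Their sum was 1375, 1346, 1895 and 2299 across VC.1 to VC.4 against 3327, 7041, 2728 and 3011 across AP.1 to AP.4, and Cldn5 was the most abundant per length (217 ± 86.0 normalized counts in VC and 377 ± 88.6 in AP, SD, n = 4). Flt1 was past 0.05 without VC.1 (adjusted p = 0.0530 by limma), and Cdh5 without VC.1, VC.2, AP.2, AP.3 or AP.4 (0.0647 to 0.0887). Of 4 lymphatic markers Flt4 rose (log2 fold change 2.77, SE 0.49, adjusted p = 0.0107 by limma) and 0 fell, with 4 higher with total-count scaling, a sum of 318 to 500 in VC and 538 to 970 in AP, and Pdpn was the most abundant per length. Of the 9 endothelial markers 8 had a fold change above 0 and Egfl7 had one of −0.40 (adjusted p = 0.291 by limma), and their part in the Sox18 value was not tested.

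Sox2 is also expressed in Merkel cells and in the Schwann cell and melanocyte lineages. The Schwann cell markers S100b (log2 fold change −1.71, SE 0.33, adjusted p = 0.0149 by limma) and Mbp (−0.91, SE 0.23, adjusted p = 0.0320) fell, and their part in the Sox2 value was not tested. The call of Mbp was lost without VC.2, VC.4, AP.2, AP.3 or AP.4 (adjusted p of 0.0590 to 0.101 by limma). With total-count scaling the adjusted p by limma was 0.0617 for S100b and 0.898 for Mbp. Of 5 melanocyte markers Mlana, Tyr and Pmel fell (log2 fold changes −2.03, −1.37 and −1.35, adjusted p of 0.00237, 0.0400 and 0.0462 by limma) and 0 rose, beside 4.0% of all genes that fell. Only Mlana was lower with total-count scaling (adjusted p of 0.304 for Tyr and 0.351 for Pmel by limma) and with total counts without mitochondrial genes (0.0526 and 0.0623). The melanocyte sum was 4222, 3189, 3763 and 1313 across VC.1 to VC.4 against 1212, 1463, 1943 and 1111 across AP.1 to AP.4, with Pmel the most abundant per length. The melanocyte sum was lowest in VC.4 among the VC libraries and highest in AP.3 among the AP libraries, as Sox2 was, and its part in the Sox2 value was not tested. Mlana kept its call in each of the 8 fits without 1 library, whereas Tyr and Pmel each lost it in 7 of them, in all but that without VC.4 (0.0612 to 0.106 and 0.0733 to 0.117 by limma). The Merkel cell markers were low, with a sum of 19.2 to 72.8 in VC and 22.9 to 110 in AP, Krt20 the most abundant per length in VC and Krt8 at 0 in 3 of 4 VC libraries. In AP, Krt8 ranked first only through AP.2, which held 74.9 normalized counts against 5.08, 2.49 and 5.72 in AP.1, AP.3 and AP.4, and the Merkel sum of 110 was that of AP.2 too. Neither of the 2 that could be tested was called (0 by limma, edgeR and DESeq2, and 0 at an unadjusted p under 0.05 by limma), and Atoh1 was not analysed here.

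Prdm1 is expressed in plasma cells and in differentiating keratinocytes too. The plasma cell genes Jchain and Mzb1 were near 0 in both groups (at most 1.41 ± 2.81 and 1.08 ± 1.37 normalized counts, SD, n = 4), while Sdc1, which epithelial cells also express and which was the most abundant per length, rose (log2 fold change 1.13, SE 0.29, adjusted p = 0.0350 by limma). With total-count scaling 2 of the 3 plasma cell genes that could be tested were higher. The call of Sdc1 was lost without VC.1, VC.4, AP.2, AP.3 or AP.4 (adjusted p of 0.0616 to 0.107 by limma). Beside 6.33% of all genes, all 6 suprabasal keratinocyte markers rose in AP, led by Krt10 (log2 fold change 3.85, SE 0.50, adjusted p = 0.00367 by limma), the most abundant per length, although Lor lost its call without any library but AP.2 (0.0531 to 0.112). Their sum was 3176, 8994, 5702 and 3761 across VC.1 to VC.4 against 31804, 33983, 89014 and 136307 across AP.1 to AP.4, and the part of these cells in the members' values was not tested. Of 6 basal keratinocyte markers Itga6, Col17a1 and Itgb4 rose (log2 fold changes 1.92, 1.73 and 1.11, adjusted p of 0.00896, 0.0298 and 0.0425 by limma) and 0 fell, beside 6.33% and 4.0% of all genes. The basal sum was 24154 to 81410 in VC and 53363 to 142908 in AP. With total-count scaling all 6 were higher, and with total counts without mitochondrial genes 2. By edgeR 2 were higher, with Itgb4 at an adjusted p of 0.056. Col17a1 lost its call without VC.1, VC.4, AP.3 or AP.4 (0.0544 to 0.0917) and Itgb4 without VC.1, VC.4, AP.2, AP.3 or AP.4 (0.0663 to 0.118).

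The dermal sheath is the contractile layer of mesenchyme that wraps the follicle and adjoins the papilla, and its genes were measured beside the papilla genes without a test between them. Of 7 sheath and smooth muscle genes 3 rose, 4 did not pass and 0 fell, beside 6.33% higher and 4.0% lower of all genes. Those that rose were Myh11 at 2.76 (SE 0.30, adjusted p = 0.00231 by limma), Mylk at 1.45 (SE 0.29, adjusted p = 0.0167) and Acta2 at 1.20 (SE 0.28, adjusted p = 0.0258) on the log2 scale. Itga8 (1.24, adjusted p = 0.0548 by limma), Cnn1 (1.05, 0.0928), Tagln (0.76, 0.0677) and Acan (0.39, 0.700) did not pass. With total-count scaling 6 of the 7 were higher. The most abundant per length was Tagln in VC and Acta2 in AP. Their sum was 1288, 1383, 1714 and 1800 across VC.1 to VC.4 against 3796, 6247, 2521 and 3475 across AP.1 to AP.4, so the groups did not overlap. These genes are shared with the smooth muscle of vessels and of hair-erecting muscles, and the call of Acta2 was lost without VC.1, VC.2, AP.2 or AP.4 (adjusted p of 0.0508 to 0.0676 by limma).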

How the data were processed

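RNA was sequenced from 8 libraries, 4 per group. By the submitters' processing notes, reads were aligned with STAR to mm10 and counted with HTSeq, whereas the study's methods name featureCounts, and DESeq2 was used for scaling and testing. The deposited values are signal values, read counts that the authors divided by 1 size factor per library. All 150160 values (100.0%) were whole multiples of 1 read (within 0.001 reads), so the reads were recovered. Columns with the authors' own comparison (mean, fold change, its error, test statistic, p and adjusted p) were not used.

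Log2(value + 1) was fitted with limma 3.58.1 (R 4.3.3, intensity trend, Benjamini-Hochberg) on genes that reached 3 normalized counts in 4 or more libraries. edgeR 4.0.16 and DESeq2 1.42.0 were run on the recovered reads. Replicate pairs differed beyond sampling noise. GENCODE M21 gave positions and exon lengths (18766 of 18770 identifiers matched).

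The members and lists were chosen with earlier results of these data known. Named were all members and reference genes, and in each list the called genes (at most 6), the most abundant per kb (by group where it differs) and any at 0 in a whole group, except that the Schwann cell list and the close relatives are given in part. Other named genes were picked after their values were seen.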

Additional observations from a re-analysis of the deposited data

Results flagged for a closer look

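In 3 of 34 groups of 4 libraries examined for the members and the reference genes, 1 library stood far from the other 3. The measure was the gap to the nearest library over the whole range of the group, and chance passes the limit used for 4 values in about 1 in 20 groups. For Prdm1 in AP, AP.3 (148 normalized counts) lay above the others at a ratio of 0.879. For Lum in VC, VC.4 (5288 normalized counts) lay above the others at 0.86. For Twist1 relative to the 3 reference genes in VC, VC.3 (−1.42) lay above the others at 0.957.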

How the results depend on the processing

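The median difference of the members relative to the reference genes stayed between −1.55 and −0.89 in all 26 alternatives run. With total-count scaling the median log2 fold change of the members was −0.0529 (all genes 0.90) and that of Sox18 was 0.31, by construction, since mitochondrial reads then enter the scaling. That scaling gave 8657 genes higher and 70 lower, and 7 and 2 among the other papilla and mesenchyme genes, against 1011, 639, 0 and 12 as reported. DESeq2 gave 1677 higher and 1362 lower, limma without the intensity trend 376 and 216 (5 lower among the papilla and mesenchyme genes), and removal of the length trend 576 higher. For these the cause was not tested. Leaving out 1 library gave 209 to 1082 genes higher and 94 to 817 lower (VC.1 left out 585 and 261, AP.2 left out 398 and 155, AP.3 left out 209 and 94, AP.4 left out 254 and 139), and 0 to 1 higher and 4 to 12 lower among the papilla and mesenchyme genes. Prdm1 changed sign with the length trend removed (−0.11) and across the fits without 1 library (−0.18 to 0.48). Relative to the reference genes it did so against the wider fibroblast list (0.0229), against Lum alone (0.17) and without 1 library (−0.57 to 0.20). The cause was not tested. Total counts without mitochondrial genes, an alternative chosen after seeing the data, gave 958 higher and 540 lower, 0 and 11 in the papilla and mesenchyme lists, and a member median of −0.88. With reads drawn down to 3080758 per library, the member median was −0.86. No paired analysis was possible because the columns carry no number tied to the labels. Sox2 rested on 30 to 91 and Prdm1 on 24 to 298 reads per library, so counting error enters their spread.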

Other observations

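Lists of cells that do not express the members as markers were measured too. Over all genes tested, limma called 6.33% higher and 4.0% lower. Of 5 red blood cell genes Hbb-bs, the most abundant per length in AP (Hba-a1 in VC), was higher in AP (log2 fold change 1.24, SE 0.28, adjusted p = 0.0231 by limma) and 0 were lower by limma and edgeR. By DESeq2 1 was lower, as was 1 at an unadjusted p under 0.05 by limma, Hba-a2, with a log2 fold change of −0.81 (adjusted p = 0.0901 by limma). For Hbb-bs the call was lost without VC.1, AP.2 or AP.4 (0.0526 to 0.0604). Of 5 skeletal muscle genes 0 were called by limma, edgeR and DESeq2, with 3 lower at an unadjusted p under 0.05 by limma. The muscle sum was 36658, 58692, 29300 and 29865 normalized counts across VC.1 to VC.4 against 60519, 7156, 4351 and 9217 across AP.1 to AP.4, so AP.1 alone among the AP libraries reached the VC range, and Acta1 was the most abundant per length. Of 5 adipocyte genes 0 were called by limma, edgeR and DESeq2 (1 higher at an unadjusted p under 0.05 by limma), and Cfd was the most abundant per length (7864 ± 4923 and 9667 ± 4092 normalized counts, SD, n = 4). Of 5 leukocyte genes 0 were called by limma and edgeR and 1 was lower by DESeq2 (1 higher and 2 lower at an unadjusted p under 0.05 by limma), and Cd68 was the most abundant per length (430 ± 268 and 208 ± 57.0 normalized counts, SD, n = 4).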
